A study of Homo sapiens with 12 samples.

Results

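The genes described here are the receptors (TNFRSF), ligands (TNFSF) and receptor-bound adaptors (TRAF) of the tumor necrosis factor (TNF) superfamily, read on 12 bead arrays of T47D breast cancer cells. Genes were read only where a probe carried a single symbol, and 17110 of 47231 probes carried none. Members were all such genes whose symbol starts with TNFRSF or TNFSF, or is TRAF followed by digits only. This gave 40 of 20046 genes. Of these, 22 carried a TNFRSF symbol, 12 a TNFSF symbol and 6 a TRAF symbol. TRAF2 was not among the 6, as no probe carried its symbol, so the TRAF family was not read in full. The TNFRSF symbols include TNFRSF14-AS1, a non-coding RNA, and the TNFSF symbols include TNFSF12-TNFSF13, a readthrough transcript. The 40 genes had 65 probes, and the probe with the highest mean over the arrays stood for its gene. All values are log2 intensities.

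The cells were T47D-Y, a luminal breast cancer subline without progesterone receptor (PR), and every line carried the pIRES-neo3 vector under G418 selection. PR-null cells held the empty vector, WT cells held wild-type PR-B, and KR cells held PR-B with the K388R mutation, which removes the lysine that carries the small protein SUMO. After serum starvation each line received the synthetic progestin R5020 or its vehicle ethanol for 6 h, and each of the 6 groups had 2 arrays from duplicate experiments. The lines were grown from single-cell clones, so a difference between lines and a difference between clones cannot be told apart. P-values rest on the spread between duplicates only, which for each probe was drawn toward a value shared by all probes.

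TNF superfamily ligands are mostly membrane proteins that cluster receptors on a neighboring cell. Death receptors such as TNFRSF10A and TNFRSF10B carry an intracellular death domain that recruits FADD and caspase-8, whereas most other receptors bind TRAF proteins, which assemble ubiquitin ligase complexes and feed into the NF-kB and JNK kinase pathways. In the mammary gland the ligand TNFSF11 (RANKL) is a well-known paracrine mediator of progesterone.

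Array medians lay at 6.01, replicate arrays correlated at 0.995, and on each array 47.8% to 47.9% of probes exceeded a background limit of 6.04, the 95th percentile of 455 olfactory receptor probes. All 7 luminal epithelial markers, keratins and ESR1 among them, were above the limit on all 12 arrays. Of 7 leukocyte markers with a probe, CD68 was above it on all arrays, CD14 on 8, MS4A1 and ITGAM on 3 each, and PTPRC, CD3E and NKG7 on none. Of the endothelial markers VWF was above it on 3 arrays and PECAM1 and CDH5 on none, and of the fibroblast markers COL1A1 on 12, at 6.15 to 6.44, DCN on 4 and COL3A1 on none. PGR, the gene for PR, read 5.38 to 5.46 in PR-null cells, 8.49 and 8.62 in WT cells with vehicle and 7.66 and 7.51 with R5020. In KR cells it read 8.86 and 8.96 with vehicle and 9.78 and 9.59 with R5020, so that KR cells held more PGR signal than WT cells in both treatments; the part of this in the results was not tested. Whether this probe reads the introduced PR-B, the cells' own gene or both is not given in the sources used here.

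Of the 40 genes, 14 were above the background limit on every array, 8 on both arrays of some groups only, 5 on single arrays and 13 on none. The 14 were the receptors TNFRSF10A, TNFRSF10B, TNFRSF12A, TNFRSF19, TNFRSF1A and TNFRSF21, the ligands TNFSF9, TNFSF13B, TNFSF14 and TNFSF15, and the adaptors TRAF3, TRAF4, TRAF6 and TRAF7. TNFRSF10C, TNFRSF11B, TNFRSF14, TNFRSF4, TNFSF8, TNFSF12-TNFSF13, TRAF1 and TRAF5 were above it in some groups. TNFRSF11A (RANK), TNFRSF9, TNFSF4, TNFSF11 and TNFSF12 passed it on single arrays only, with TNFSF11 at 5.64 to 6.24. The 13 at background were TNFRSF10D, TNFRSF13B, TNFRSF13C, TNFRSF14-AS1, TNFRSF17, TNFRSF18, TNFRSF1B, TNFRSF25, TNFRSF6B, TNFRSF8, TNFSF10, TNFSF13 and TNFSF18. Of these, TNFRSF13B, TNFRSF13C and TNFRSF17 are known from B cells. TNFSF10 (TRAIL), the ligand of TNFRSF10A and TNFRSF10B, read 5.30 to 5.97.

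The first question was which family members responded to R5020 through each receptor. A call required a log2 difference of more than 0.6 (1.52-fold) with an adjusted p below 0.01 (limma with Benjamini-Hochberg adjustment over all probes), the thresholds used in the study. In WT cells 4 of 40 members rose (10%), TRAF5, TNFRSF10B, TNFRSF21 and TNFRSF10A, beside 3.30% of all genes. In the same cells 1 of 40 fell (2.5%), TRAF4, beside 2.00% of all genes. In KR cells TRAF5, TNFRSF10B and TNFRSF21 rose (7.5% of members, 2.70% of all genes), and TNFRSF19 and TNFRSF11B fell (5% of members, 1.38% of all genes). In PR-null cells limma called 0 of 40, with 0% of all genes called higher and 0% lower, and 2 members had an unadjusted p under 0.05. The median difference over the 40 members was -0.02 in WT cells and -0.02 in KR cells, against -0.01 and -0.02 over all genes.

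**Figure D1:**
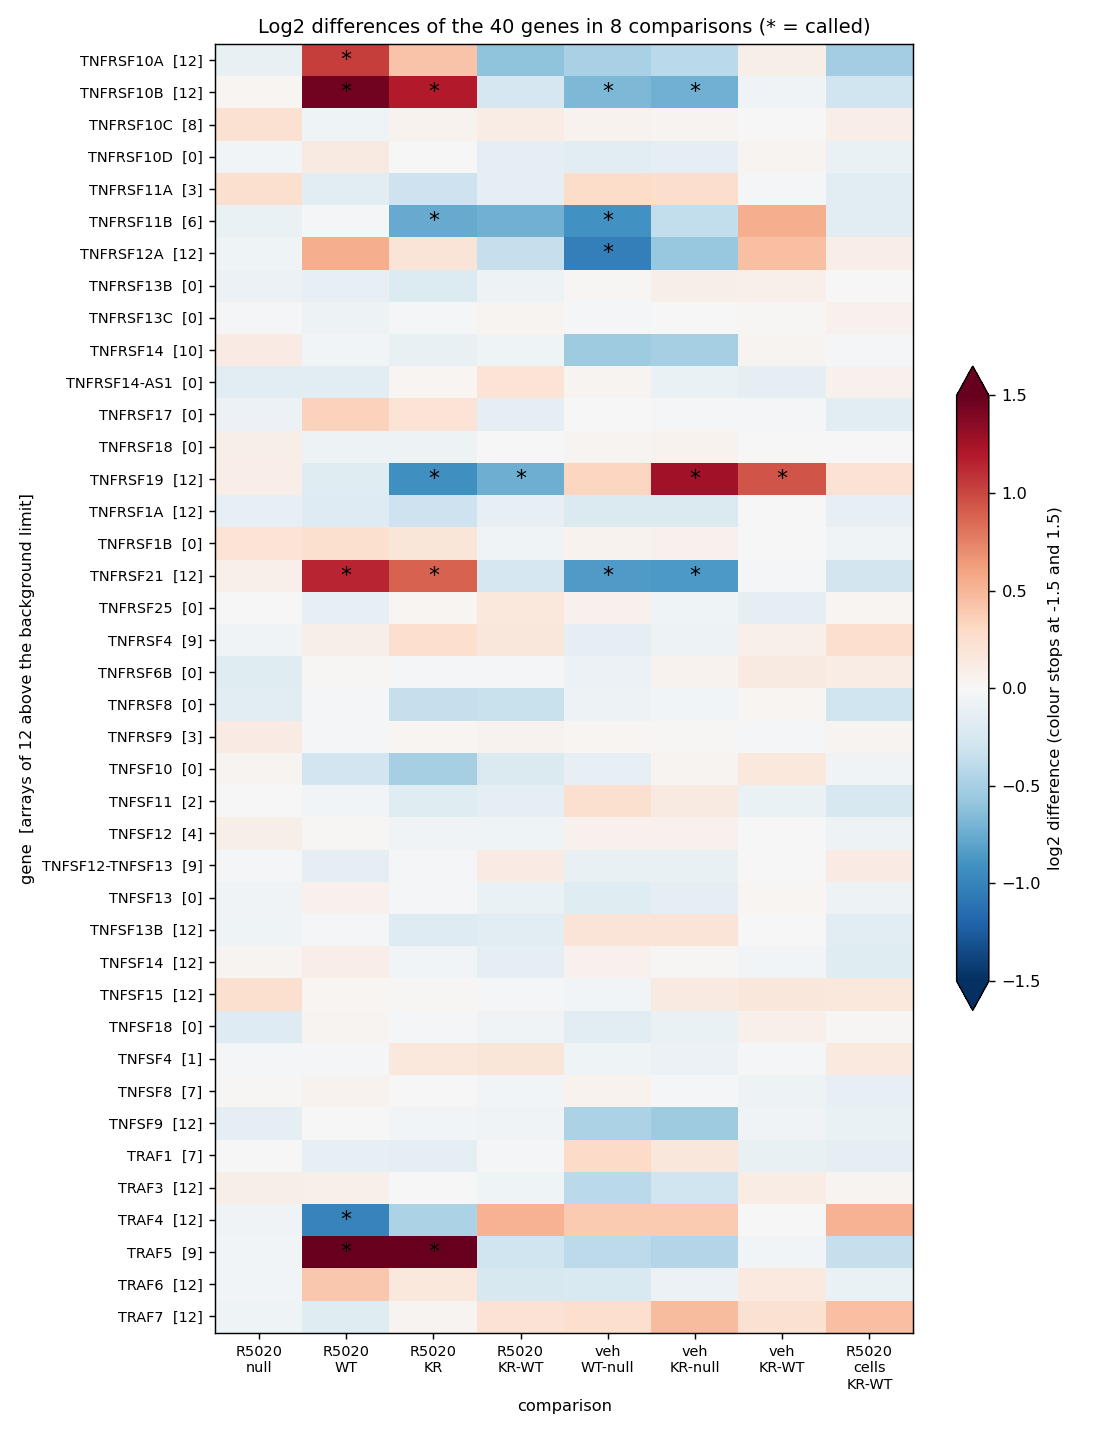
Log2 differences (colour) of the 40 genes (vertical axis, with the number of the 12 arrays above the background limit in brackets) in 8 comparisons (horizontal axis), where an asterisk marks a called difference. Calls lie in TNFRSF10A, TNFRSF10B, TNFRSF11B, TNFRSF12A, TNFRSF19, TNFRSF21, TRAF4 and TRAF5, and none lies in a TNFSF ligand or in the column of PR-null cells.

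TRAF5, an adaptor of lymphotoxin-beta receptor, CD40 and other receptors that lead to NF-kB, had the largest R5020 effect of the 40 genes in WT and in KR cells. In WT cells it read 5.79 and 6.06 with vehicle and 9.19 and 9.39 with R5020. In KR cells the values were 5.79 and 5.97 with vehicle and 9.03 and 8.86 with R5020. PR-null cells read 6.23 and 6.41 with vehicle and 6.23 and 6.32 with R5020. The gene thus stood near or under the background limit without hormone in both PR lines, where 1 of 4 vehicle arrays passed it, and well above it on all 4 R5020 arrays. The log2 difference was 3.36 ± 0.12 (SE, n = 2 and 2 arrays, limma adjusted p = 5.72e-26) in WT cells, at least 9.45-fold when the vehicle array under the background limit is set to it. In KR cells it was 3.06 ± 0.12 (adjusted p = 1.78e-24), at least 7.50-fold with both vehicle arrays set to the limit. In PR-null cells it was -0.04 (95% interval -0.28 to 0.20). The effect in KR cells was not shown to differ from that in WT cells, with a difference of -0.30 (-0.63 to 0.03, adjusted p = 0.634).

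TRAF5 had 5 probes, and they did not respond alike. The one read above (ILMN_1740493) and ILMN_2338116 are both assigned to NM_004619. On ILMN_2338116 every vehicle and PR-null array was under the limit, at 5.44 to 5.83, whereas WT cells with R5020 read 7.04 and 6.84 and KR cells with R5020 read 6.71 and 6.94. This probe was also called, with rises of at least 1.87-fold in WT cells and at least 1.73-fold in KR cells. The probes ILMN_2255811 (NM_004619), ILMN_1699447 (NM_145759) and ILMN_1677104 (NM_001033910) ranged from 5.18 to 6.08, with a single value above the limit, and none was called. ILMN_2255811 shares its transcript name with both responding probes, so that the names alone do not separate the probes that responded.

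**Figure D2:**
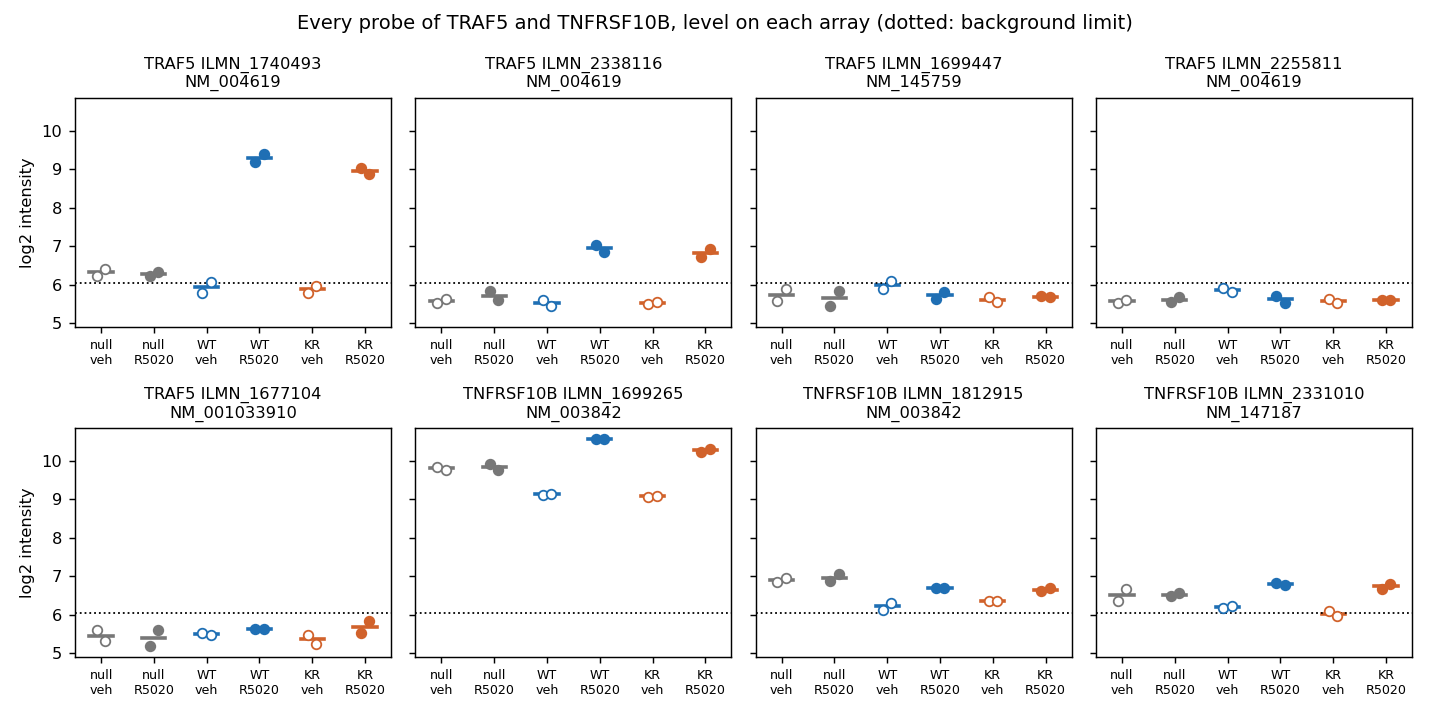
Log2 intensity (vertical axis) on each array for the 5 probes of TRAF5 and the 3 probes of TNFRSF10B, by line and treatment (horizontal axis, open circles vehicle, filled circles R5020, bars the mean of 2 arrays, dotted line the background limit of 6.04). Only ILMN_1740493 and ILMN_2338116 of TRAF5 leave the background with R5020, in WT and KR cells, while the 3 probes of TNFRSF10B are each higher with R5020 than with vehicle in both lines.

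TNFRSF10B (DR5) and TNFRSF10A (DR4) are the death receptors of TRAIL. TNFRSF10B read 9.12 and 9.14 in WT cells with vehicle and 10.58 and 10.57 with R5020. KR cells read 9.06 and 9.09 with vehicle and 10.22 and 10.32 with R5020, and PR-null cells stayed between 9.75 and 9.90. The arrays of the 2 treatments did not overlap in either PR line. The difference was 1.45 ± 0.11 in WT cells (2.72-fold, limma adjusted p = 1.87e-14) and 1.19 ± 0.11 in KR cells (2.29-fold, adjusted p = 8.26e-12), against 0.03 (-0.19 to 0.24) in PR-null cells. The 2 effects differed by -0.25 (-0.56 to 0.06, adjusted p = 0.685). Of its other probes, ILMN_2331010 was called in both lines, at 0.60 and 0.71, and ILMN_1812915 moved the same way without a call, at 0.48 and 0.29, so the size of the change depended on the probe read.

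TNFRSF10A read 7.71 and 7.62 in WT cells with vehicle and 8.74 and 8.66 with R5020. In KR cells it read 7.64 and 7.87 with vehicle and 8.27 and 8.10 with R5020, and in PR-null cells 8.02 to 8.29 over both treatments. R5020 arrays were above vehicle arrays in both PR lines, but by less in KR cells. The rise in WT cells was 1.04 ± 0.12 (2.05-fold, limma adjusted p = 1.98e-09). In KR cells the difference of 0.43 (0.20 to 0.66) was not called (adjusted p = 0.0126). The test of the difference between these effects gave -0.61 (-0.93 to -0.28) with an adjusted p of 0.0527, and did not pass. With R5020, KR cells read 0.52 lower than WT cells (adjusted p = 0.00245), under the size required for a call. The decoy receptor TNFRSF10C, which binds TRAIL but lacks a death domain, was near background, with differences of at most 0.23 over the 8 comparisons.

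TNFRSF21 (DR6), a death domain receptor, also responded in both lines. It read 10.24 and 10.32 in WT cells with vehicle and 11.32 and 11.52 with R5020. The KR values were 10.26 and 10.26 with vehicle and 11.19 and 11.10 with R5020, and PR-null cells read 10.95 to 11.30. The difference was 1.14 ± 0.12 in WT cells (2.21-fold, limma adjusted p = 1.93e-10) and 0.89 ± 0.12 in KR cells (1.85-fold, adjusted p = 1.40e-07). Vehicle arrays of the PR lines were the lowest of the 12, and their R5020 arrays lay among or above those of PR-null cells. The effects in the 2 lines differed by -0.26 (-0.59 to 0.08, adjusted p = 0.717).

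TRAF4, an adaptor first found in breast carcinoma, moved the other way. It read 7.38 and 7.42 in WT cells with vehicle and 6.45 and 6.35 with R5020. KR cells read 7.28 and 7.52 with vehicle and 6.92 and 6.91 with R5020, and PR-null cells 6.87 to 7.14. The decrease in WT cells was -1.002 ± 0.11 (2.00-fold, limma adjusted p = 4.18e-09). In KR cells the difference of -0.48 was under the size threshold (adjusted p = 0.00382), and the difference between the lines of 0.52 (0.19 to 0.85) did not pass (adjusted p = 0.139). A second TRAF4 probe, ILMN_1745976, was at or near background on all arrays and was not called. Averaged over both probes, the decrease in WT cells was -0.46 and was no longer called.

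**Figure D3:**
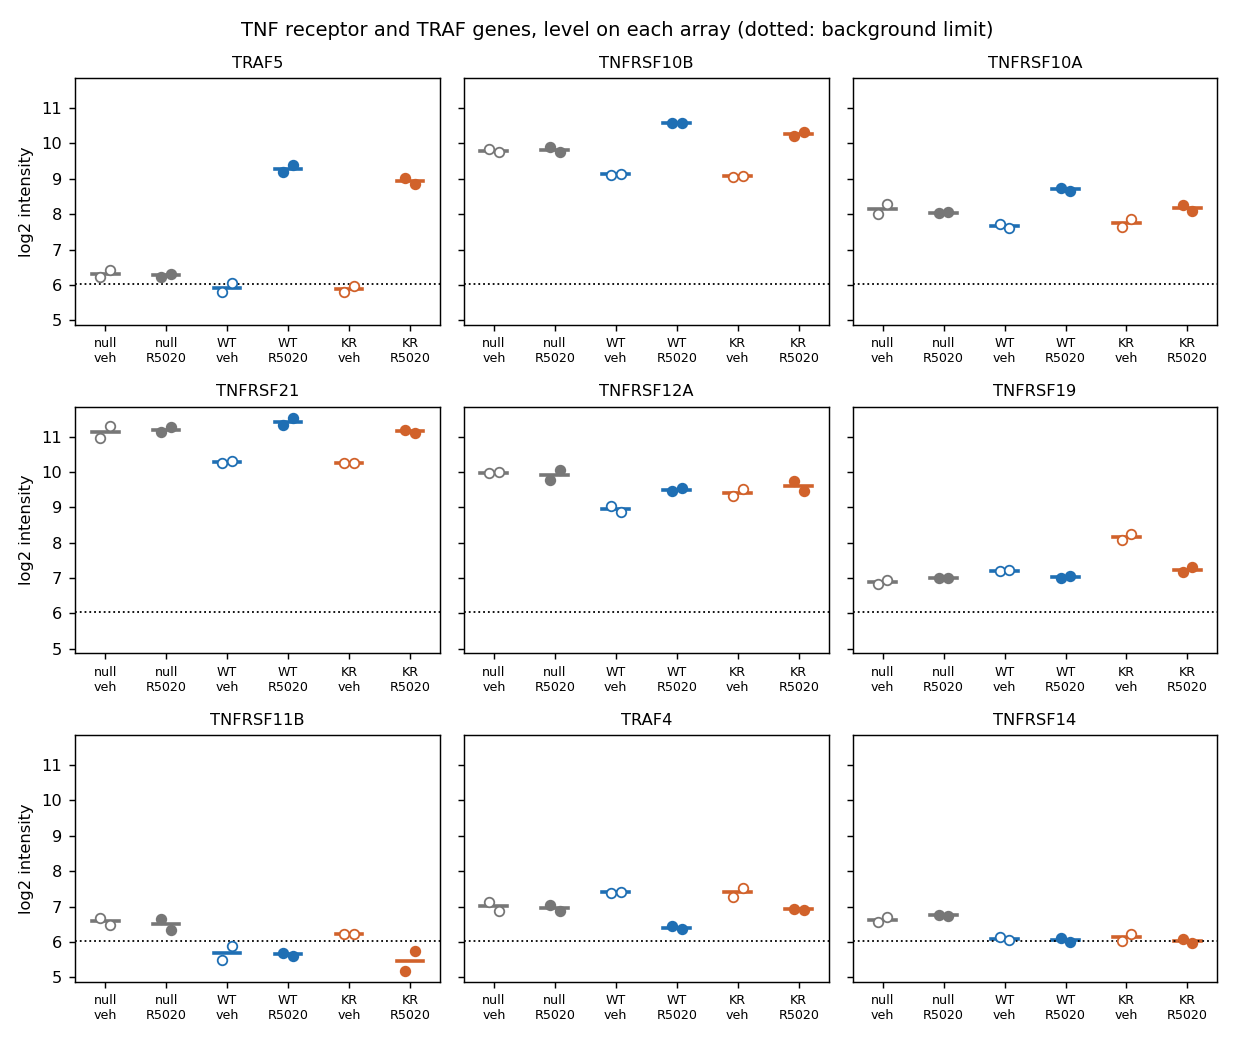
Log2 intensity (vertical axis) on each array for 9 genes, by line and treatment (horizontal axis, open circles vehicle, filled circles R5020, bars the mean of 2 arrays, dotted line the background limit of 6.04). TRAF5, TNFRSF10B and TNFRSF21 rise with R5020 in WT and KR cells, TNFRSF19 is highest in KR cells with vehicle at 8.07 and 8.24, and no difference with R5020 is called in PR-null cells.

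The start sites of members that moved together are shown because progestin-bound PR can act through DNA elements near a gene. The RefSeq promoter table (GRCh38.p14) held an entry for 28 of the 40 members, including TRAF5 and TNFRSF21, which rose in both PR lines; TNFRSF10B and TNFRSF12A had none. The 250 bases before the first of 3 listed TRAF5 starts (chr1:211326385-211326634, plus strand) and before the TNFRSF21 start (chr6:47309906-47310155, minus strand) follow, 5′ to 3′ on the strand of the gene, with CpG dinucleotides in capitals.
TRAF5: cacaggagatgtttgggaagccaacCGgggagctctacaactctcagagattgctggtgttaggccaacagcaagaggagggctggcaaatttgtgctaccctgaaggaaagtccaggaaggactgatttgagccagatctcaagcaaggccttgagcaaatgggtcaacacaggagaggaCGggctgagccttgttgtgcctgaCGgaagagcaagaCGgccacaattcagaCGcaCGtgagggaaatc
TNFRSF21: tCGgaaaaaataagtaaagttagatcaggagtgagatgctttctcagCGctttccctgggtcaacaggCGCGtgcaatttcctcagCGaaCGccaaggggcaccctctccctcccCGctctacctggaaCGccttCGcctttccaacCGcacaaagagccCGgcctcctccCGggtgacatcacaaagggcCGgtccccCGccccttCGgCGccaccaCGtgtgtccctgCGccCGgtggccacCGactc
The TRAF5 stretch held 6 CpG dinucleotides and the TNFRSF21 stretch 20, against a median of 11 over all 35116 promoters in the table. The windows before the second TRAF5 start, which overlaps the first, and before the last held 29 and 2. Searched on both strands, neither of these genes held, at any listed start, the hexamer AGAACA of the progesterone response element, which 12.4% of all promoters hold. Among the 28 members with an entry, it was found at 1 or more starts of 5, TNFRSF19, TNFRSF25, TNFSF4, TNFSF18 and TRAF1. The 12.4% counts single starts and the 5 of 28 counts genes, so these shares differ in unit. Only this single hexamer was searched, not a whole response element, and the matches describe letters in this window only.

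The next question was whether SUMO-deficient KR receptors and WT receptors acted differently on the family. For the difference between the R5020 effects (KR minus WT), 0 members were called higher (0.619% of all genes) and 1 of 40 was called lower (2.5%, against 0.389% of all genes), TNFRSF19. TNFRSF19 (TROY) is a receptor known from neural tissue and hair follicles. It read 8.07 and 8.24 in KR cells with vehicle and 7.17 and 7.30 with R5020. WT cells read 7.19 and 7.23 with vehicle and 6.996 and 7.05 with R5020, and PR-null cells 6.84 to 6.996. The KR arrays with vehicle stood above all others, and with R5020 the KR arrays lay near those of the other lines. The change was -0.92 ± 0.11 in KR cells (1.89-fold lower, limma adjusted p = 1.38e-08) and -0.18 ± 0.11 in WT cells (adjusted p = 0.396), and the difference between them was -0.73 ± 0.15 (-1.05 to -0.42, adjusted p = 0.00483). Without any 1 of 7 of the 8 arrays in this comparison, all but KR vehicle replicate 1, the difference lost its call, with values from -0.80 to -0.65 and adjusted p from 0.0106 to 0.0646.

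The TNFRSF19 result rested on 1 of 4 probes. ILMN_1704154 is assigned to NM_148957, while the other 3, assigned to NM_018647, were under the background limit on all 12 arrays (5.16 to 5.96) and were not called. Averaged over the 4 probes, the R5020 effect in KR cells was -0.29, the difference between the effects -0.24 (adjusted p = 0.485) and the excess of KR over WT cells with vehicle 0.34, none of them called. The second of the TNFRSF19 starts listed in RefSeq held the hexamer of the response element at position -249 from the start (chr13:23579110-23579359, plus strand). A single hexamer is not a whole response element, and 12.4% of all promoters hold it. It was read as its reverse complement and is shown in capitals.
TNFRSF19: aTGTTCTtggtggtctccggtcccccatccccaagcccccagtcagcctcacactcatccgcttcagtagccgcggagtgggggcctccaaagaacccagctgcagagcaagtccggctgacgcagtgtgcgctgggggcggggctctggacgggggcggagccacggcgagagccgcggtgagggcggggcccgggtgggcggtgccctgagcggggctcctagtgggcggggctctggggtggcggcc

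TNFRSF11B (osteoprotegerin), the soluble decoy receptor of TNFSF11, was the other member that fell in KR cells. It read 6.22 and 6.23 with vehicle and 5.19 and 5.75 with R5020, and so passed from just above the background limit to below it. WT cells read 5.48 and 5.87 with vehicle and 5.69 and 5.602 with R5020, all under the limit, and PR-null cells 6.69 and 6.49 with vehicle and 6.64 and 6.34 with R5020, all above it. The difference in KR cells was -0.75 ± 0.14 (limma adjusted p = 7.07e-05), a fall of at least 1.14-fold by the limit. Without KR R5020 replicate 1 it was -0.47 and not called (adjusted p = 0.0656). The difference between the effects in the 2 lines, -0.72, had an adjusted p of 0.0468 and was not called.

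**Figure D4:**
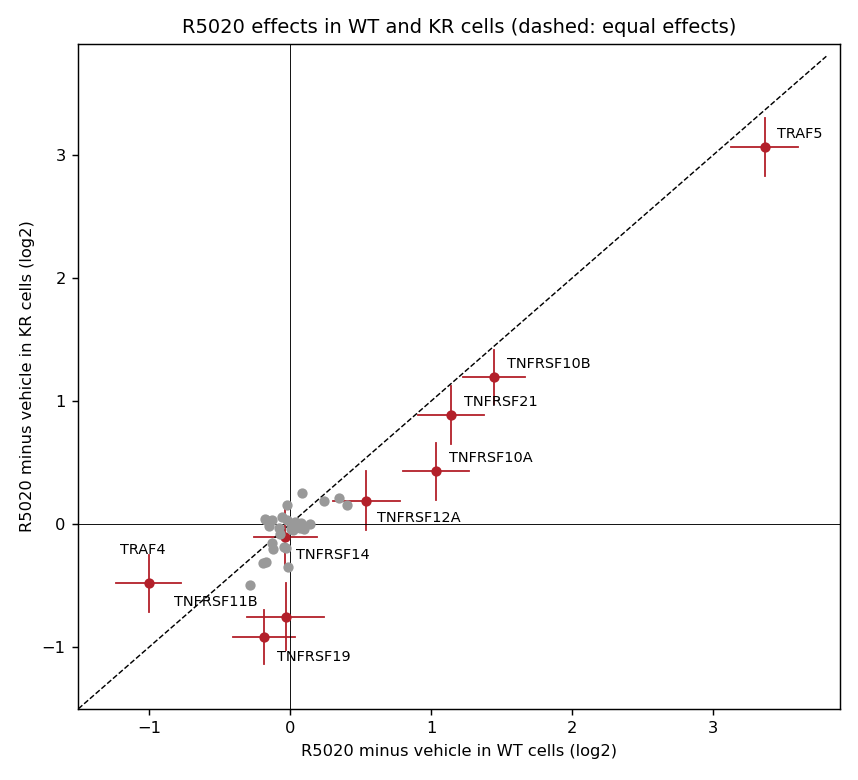
R5020 minus vehicle in WT cells (horizontal axis, log2) against the same in KR cells (vertical axis, log2) for the 40 genes, with 95% intervals for the 9 named genes in red and the others as grey points. TRAF5, TNFRSF10B and TNFRSF21 lie near the dashed line of equal effects, TNFRSF19 falls mainly in KR cells (-0.92 against -0.18), and most of the other genes lie close to 0.

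Levels were then compared between KR and WT cells under each treatment. With vehicle, TNFRSF19 alone was called higher in KR cells (1 of 40, 2.5%, against 0.374% of all genes), by 0.95 ± 0.11 (1.93-fold, limma adjusted p = 6.53e-08), and 0 members were called lower (0.479% of all genes). TNFRSF11B was 0.55 higher in KR cells (adjusted p = 0.0171) and TNFRSF12A 0.46 higher (adjusted p = 0.0267), neither of which was called. With R5020, limma called 0 of 40 members in either direction, beside 1.20% of all genes higher and 1.36% lower, and 8 members had an unadjusted p under 0.05. Among these 8, TRAF4 was 0.52 higher in KR cells (0.29 to 0.75, adjusted p = 0.00221) and TNFRSF10A 0.52 lower.

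The comparison of vehicle arrays asked which genes differed between lines without added progestin. In WT cells 4 of 40 members (10%) were lower than in PR-null cells, TNFRSF12A, TNFRSF11B, TNFRSF21 and TNFRSF10B, against 1.69% of all genes, and 0 were higher (1.47% of all genes). In KR cells TNFRSF21 and TNFRSF10B were lower (5% of members, 1.59% of all genes) and TNFRSF19 was higher (2.5% of members, 1.01% of all genes). All these genes are receptors. The comparisons with PR-null cells share the PR-null arrays, and those of WT or KR vehicle arrays share these arrays with the R5020 effects above.

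TNFRSF12A (Fn14), the receptor of the TNFSF12 ligand TWEAK, read 9.96 and 9.99 in PR-null cells with vehicle and 9.03 and 8.88 in WT cells. KR cells lay between them at 9.31 and 9.51. The WT difference was -1.02 ± 0.12 (2.03-fold lower, limma adjusted p = 9.72e-09), and the KR difference of -0.57 had an adjusted p of 0.0009 but was under the size threshold. With R5020 the gene read 9.46 and 9.53 in WT cells, 9.74 and 9.46 in KR cells and 9.78 and 10.06 in PR-null cells. The R5020 effect in WT cells, 0.54 (adjusted p = 0.00092), and that in KR cells, 0.19 (adjusted p = 0.501), were not called.

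TNFRSF21 was 0.84 lower in WT cells with vehicle than in PR-null cells (1.80-fold, limma adjusted p = 6.12e-07) and 0.87 lower in KR cells (1.82-fold, adjusted p = 4.30e-07), with SE of 0.12 for each. TNFRSF10B was 0.67 lower in WT cells (1.59-fold, adjusted p = 1.38e-05) and 0.73 lower in KR cells (1.65-fold, adjusted p = 4.06e-06). Its probe ILMN_1812915 was likewise called lower in WT cells. Averaged over its 3 probes, TNFRSF10B was 0.56 and 0.59 lower in WT and KR cells, under the size threshold. TNFRSF10A differed from PR-null cells by -0.49 in WT cells (adjusted p = 0.00344) and -0.40 in KR cells (adjusted p = 0.0267), neither called. TNFRSF11B was lower in WT than in PR-null cells by at least 1.46-fold (-0.91 ± 0.14, adjusted p = 2.87e-06), while the KR difference of -0.36 was not called (adjusted p = 0.123). TNFRSF19 was 1.26 ± 0.11 higher in KR cells than in PR-null cells (2.40-fold, adjusted p = 4.90e-12), against 0.32 in WT cells (adjusted p = 0.0715).

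In a pair of comparisons added after the data were seen, R5020 arrays of the PR lines were set against R5020 arrays of PR-null cells. In WT cells TRAF5, TNFRSF10B and TNFRSF10A were higher (7.5% of members, 4.25% of all genes) and TNFRSF11B and TNFRSF14 lower (5% of members, 3.62% of all genes). In KR cells TRAF5 was higher (2.5% of members, 3.23% of all genes) and TNFRSF11B and TNFRSF14 lower (5% of members, 3.05% of all genes). TRAF5 was 3.01 higher in WT cells (8.06-fold, limma adjusted p = 2.19e-24) and 2.67 higher in KR cells (6.35-fold, adjusted p = 2.09e-22). TNFRSF10B was 0.75 higher in WT cells (adjusted p = 6.77e-07) and 0.44 higher in KR cells, the latter not called (adjusted p = 0.00326). The WT difference averaged over its 3 probes was 0.25 and not called. Its probes disagreed in sign. The probe ILMN_1812915 differed by -0.26 in WT cells and -0.31 in KR cells, without a call. The probe ILMN_2331010 differed by 0.28 and 0.21, also without a call. TNFRSF10A was 0.66 higher in WT cells (adjusted p = 2.54e-05) and 0.14 higher in KR cells (adjusted p = 0.607). TNFRSF21 was not called in either line, at 0.23 (-0.01 to 0.46) and -0.05 (-0.29 to 0.18). For TNFRSF21 the rise with R5020 thus ended near the PR-null level, whereas TRAF5 ended above it in both lines.

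TNFRSF14 (HVEM), the receptor of TNFSF14 (LIGHT) and of BTLA, read 6.56, 6.69, 6.77 and 6.73 in PR-null cells and 5.97 to 6.22 on the 8 arrays of WT and KR cells. All PR-null arrays were above all others. With R5020 it was 0.69 lower in WT cells (1.61-fold, limma adjusted p = 4.84e-06) and 0.73 lower in KR cells (at least 1.62-fold, adjusted p = 2.29e-06). With vehicle it was 0.53 and 0.50 lower, under the size threshold. In each PR line 1 of 2 R5020 arrays was above the background limit. TNFRSF14 was named after its values were seen.

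No TNFSF ligand was called by limma in any of the 10 comparisons, and 0 to 4 of the 12 ligands had an unadjusted p under 0.05 in each. Among the 4 ligands above background on all arrays, TNFSF9 (4-1BB ligand) read 6.30 to 7.19 and was 0.48 lower in WT cells (adjusted p = 0.0113) and 0.54 lower in KR cells with vehicle (adjusted p = 0.0046) than in PR-null cells. TNFSF14 read 8.23 to 8.53, TNFSF15 6.68 to 7.08 and TNFSF13B (BAFF) 6.47 to 6.79, with differences of at most 0.24 in the 8 comparisons. Of the adaptors that were not called, TRAF6, which serves interleukin-1 and Toll-like receptors as well, was 0.40 higher with R5020 in WT cells (adjusted p = 0.0179). TRAF7 was 0.48 higher in KR than in PR-null cells with vehicle (adjusted p = 0.003), and TRAF3, a brake on the non-canonical NF-kB pathway, was 0.41 lower in WT than in PR-null cells with vehicle. TNFRSF1A, the ubiquitous receptor of TNF, differed by at most 0.31 in the 8 planned comparisons, and was 0.40 lower in KR than in PR-null cells with R5020, which was not called (adjusted p = 0.0143). Over the 32 members without a call in the 8 comparisons, the largest difference of each lay between 0.08 and 0.54.

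Other genes of the pathway were read from lists chosen with earlier results of these data known. Of 15 TNF superfamily genes with other symbols, such as TNF, FAS, CD40 and LTBR, 14 had a probe, 3 were above background in all groups and 0 were called in any comparison. Of 13 death receptor signaling genes listed, 9 were analysed here, and 1 of the 9 rose in WT cells (11.1%, beside 3.30% of all genes). CFLAR (c-FLIP), an inhibitor of caspase-8 activation at death receptors, rose in WT cells by 0.62 (limma adjusted p = 7.0002e-05), from 8.13 and 8.34 to 8.84 and 8.88. In KR cells with R5020 it read 8.51 and 8.76, against 8.21 and 8.14 with vehicle, a difference of 0.46 that missed the call on size (adjusted p = 0.00518). Against PR-null cells with R5020 it was called higher in both lines, by 0.89 in WT cells and 0.66 in KR cells. The list had a median R5020 effect of 0.06 in WT and 0.14 in KR cells.

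Of 35 TRAF partners and NF-kB activation genes, 7 (20%) rose with R5020 in WT cells, beside 3.30% of all genes, and 2 (5.71%) rose in KR cells, beside 2.70%. These shares are descriptive, because the list was chosen with earlier results of these data known. The list and all genes may also differ in level, which was not compared in the same unit. By its brightest probe, 29 of the 35 genes were above background in all groups. Over all probes, with or without a symbol, 47.8% to 47.9% on an array were above it. None of the list was called lower in WT cells (2.00% of all genes) or in KR cells (1.38%). The median over this list was 0.10 in WT cells and 0.05 in KR cells. NFKBIA, the inhibitor that holds NF-kB in the cytoplasm, rose from 11.16 and 11.19 to 12.47 and 12.58 in WT cells (1.35, limma adjusted p = 9.16e-13) and from 11.20 and 10.95 to 12.22 and 12.25 in KR cells (1.16, adjusted p = 8.58e-11). TNFAIP3 (A20), a ubiquitin-editing inhibitor of TNF receptor signaling, rose by 0.84 in WT cells and 1.42 in KR cells (adjusted p = 2.30e-07 and 2.05e-13), and was 0.60 higher in KR than in WT cells with R5020 (adjusted p = 0.000294). In PR-null cells the R5020 effect on TNFAIP3 was 0.35 (0.12 to 0.58, adjusted p = 0.907) and was not called. Its vehicle arrays lay near the background limit, at 5.84 to 6.17 in the PR lines. The other genes that rose in WT cells were NFKBIE (0.92), TNIP2 (0.80), TRAF3IP2 (0.79), OTULIN (0.63) and TRAFD1 (0.61). NFKBIE is an inhibitor of NF-kB, TNIP2 a partner of TNFAIP3, TRAF3IP2 (Act1) the adaptor of the interleukin-17 receptor, and OTULIN a deubiquitinase of linear ubiquitin chains. TRAF3IP2 was 0.61 lower in KR than in WT cells with R5020 (adjusted p = 0.000283). No gene of the list was called between lines with vehicle. Against PR-null cells with R5020, 5 genes of the list were higher and 2 lower in WT cells, and 2 were higher and 3 lower in KR cells. NFKBIA was higher by 1.34 in WT and 1.05 in KR cells, and TNFAIP3 by 1.15 in KR cells. The TNFAIP3 difference in WT cells, 0.55, was under the size threshold. In WT cells TNIP2 was higher by 0.97, NFKBIE by 0.74, TRAF3IP2 by 0.63 and IKBKG, which has a near-identical pseudogene copy and is uncertain, by 0.72. NFKB2 was lower by 0.84 in WT and 0.95 in KR cells, TANK, a TRAF-binding protein, by 0.63 and 0.64, and RELB by 0.77 in KR cells.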

How the data were processed

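Total RNA of 12 cultures was hybridised to Illumina HumanHT-12 v4 bead arrays. The deposited values are log2 intensities, which the authors made with lumi by log2 transformation and quantile normalization; no further normalization was applied. Quantile normalization gives all arrays the same distribution, so a shift of all genes cannot be seen. A table of raw signals holds 24 columns whose codes match no label, and it was not used. Of 47231 probes, 30113 carried 1 symbol, 8 several and 17110 none. All 40 members matched a RefSeq symbol.

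All probes were fitted in limma 3.58.1 (R 4.3.3) with a mean for each group. Variances were moderated by empirical Bayes (37.1 prior and 6 residual degrees of freedom), and groups were compared by contrasts. P-values were adjusted over all probes. Calls needed a log2 difference above 0.6 with an adjusted p below 0.01. The number of arrays limits the precision. Where both arrays of a group were at or under the background limit, the fold is given as at least the mean of the brighter group over the limit. The method was tested on simulated data. Motifs were searched in the 250 bases before each RefSeq start.

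Genes named in full were TNFRSF10A, TNFRSF10B, TRAF5 and every member called in any of 8 planned comparisons. Other genes are named from 3 pathway lists where called. The members and lists were chosen with earlier results of these data known. Replicate numbers were checked for pairing over 12587 probes whose mean exceeded 7. Deviations of same-numbered arrays correlated at -0.0468 to 0.0814 in 15 pairs of groups, so numbers did not enter as a block. Alternatives were a prior with intensity trend, a filter on dim probes, a floor at the limit, the mean of all probes of a gene, cyclic loess, a fit of the compared groups alone, other thresholds, the replicate block and leaving out each array.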

Additional observations from a re-analysis of the deposited data

Results flagged for a closer look

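The R5020 effect on TNFRSF19 differed between KR and WT cells by -0.73 on the log2 scale (limma adjusted p = 0.00483). Both KR arrays with R5020 were lower than both KR arrays with vehicle, and the effect was -0.92 in KR cells and -0.18 in WT cells. It was singled out because the test of the difference between lines passed, the only such case among the 40 genes. The call rested on the brightest of the 4 TNFRSF19 probes and was lost with the mean of all probes and with values floored at the background limit. Leaving out 1 array gave differences of -0.82 to -0.65, and the call was lost without most of the arrays compared.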

How the results depend on the processing

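Across the alternatives no named difference changed sign. The counts of members called and the 27 named differences kept their calls with an intensity trend in the prior, with the filter on dim probes, after cyclic loess and in fits of the compared groups alone. With the replicate block the counts were also the same, 5 in WT cells, 5 in KR cells and 1 for the difference between the effects, although the numbers share no known pairing. Values floored at the background limit left 3 members called for the KR effect, 0 for the difference between effects, 1 for WT against PR-null cells with vehicle and 3 with R5020. The floor left 15383 probes without spread and lowered the prior degrees of freedom to 0.348. Calls of TNFRSF10A, TNFRSF11B, TNFRSF12A, TNFRSF19 and TNFRSF21 were lost with it, at adjusted p of 0.0122 to 0.0487 apart from TNFRSF11B in the KR effect (0.625). The differences of all but TNFRSF11B, which is under the limit on some arrays, stayed as they were. With the mean of all probes of a gene, 0 members were called for the difference between effects, 1 for KR against PR-null cells with vehicle and 0 for KR against WT cells with vehicle, with calls lost for TNFRSF10B, TNFRSF19 and TRAF4. At an adjusted p under 0.05 the difference between effects gained TNFRSF11B, for 2 calls. At a log2 difference over 1 the counts were 2 for the KR effect, 0 for the difference between effects, 1 for WT against PR-null cells with vehicle, 1 for KR against PR-null cells with vehicle, 0 for KR against WT cells with vehicle, 1 for WT and 2 for KR against PR-null cells with R5020, and 15 of the 27 named differences lost their call. When each array was left out, the difference between effects gave 0 to 1 calls and KR against WT cells with vehicle 1 to 2, the latter without WT vehicle replicate 2, which added TNFRSF11B. Over these fits the named differences kept their call 316 times and lost it 8 times, 7 of TNFRSF19 and 1 of TNFRSF11B. At the 99th percentile of the olfactory receptor probes (6.45), 11 members rather than 14 were above background on all arrays. Signals near background limit what can be said of TNFRSF11B and TNFRSF14 and of TRAF5 without hormone.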
